A study of Mus musculus with 10 samples.

Results

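The 9 genes described here encode SNAREs that act at the apical plasma membrane and at late endosomes, together with *Stxbp2*, a gene of the Sec1/Munc18 (SM) family. They are *Stx2*, *Stx3*, *Stx7*, *Stx8*, *Vamp7*, *Vamp8*, *Snap23*, *Vti1b* and *Stxbp2*. They were chosen by their role, with no measured value in the rule, but with earlier results of these data known. They make up 9 of the 22180 genes measured. All 9 were on the array, each with 1 probe set. The arrays compared the livers of 6 *Vps33b* fl/fl-AlfpCre mice (3 males and 3 females, called knockout mice) with those of 4 Cre-negative *Vps33b* fl/fl littermates (2 males and 2 females, wild type in the labels and called control mice). Both groups carry the floxed alleles on a C57BL/6 J background, and both ate chow with 0.5% cholic acid, a primary bile acid. The labels give an age of 10 weeks and 2 weeks of feeding, whereas the study's methods give a longer feeding period for experiments on this diet, and its text gives the array mice a range of ages that holds the labelled one. Cre in this line is active in hepatocytes and cholangiocytes, so the other cells of the liver keep *Vps33b*. Total RNA of the liver was read on 1 array per mouse, and values are log2 intensities of a probe set (the group of probes that reads a gene), so that a difference of 1 is a doubling of signal.

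SNAREs are membrane proteins that zip together across a vesicle and its target and so drive fusion. A target membrane usually supplies the Qa, Qb and Qc helices and the vesicle an R helix, and an SM protein clasps the assembling bundle. VPS33B is itself an SM protein, and its relative VPS33A guides late endosomal SNAREs as a subunit of the HOPS tether. In epithelial cells, syntaxin 3 sits at the apical surface, which in hepatocytes is the canalicular membrane. In humans, loss of STX3 or of its SM partner STXBP2 damages the microvillus border of the gut.

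*Vps33b*, the targeted gene, read 9.12, 9.15, 9.14 and 9.13 on the log2 scale in control mice 1 to 4. It read 9.38, 9.20, 9.19, 9.23, 9.39 and 8.92 in knockout mice 1 to 6. Only knockout 6 lay below the controls, and the log2 fold change was 0.08 (95% interval -0.13 to 0.29) with an adjusted p of 0.739 in limma, which tests every gene in a linear model. By fluorescence in situ hybridisation and Western blot, the study found that hepatocytes of this line had lost *Vps33b* expression. The floxed alleles let Cre remove only some exons of *Vps33b*. The sources used here do not say which exons the array's *Vps33b* probe set reads, so it may read exons that remain. Other liver cells also keep the gene, so the label of a mouse cannot be checked on this probe set. *Vps33a* had a log2 fold change of -0.09 (95% interval -0.26 to 0.08, adjusted p = 0.616). Arrays correlated with each other at 0.982 to 0.991 over all probe sets, and the array medians ran from 4.71 to 4.82. In 10 of 10 mice the Y-linked genes fitted the labelled sex. Read in females, which lack these genes, they gave 3.38 to 4.51 as a background, and every value of the 9 members lay above this.

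None of the 9 genes passed the test between knockout and control liver (limma with sex as a term, Benjamini-Hochberg adjustment over all genes, threshold 0.05). Over all 22180 genes 4.25% passed, 3.11% as higher and 1.14% as lower in knockout mice. At an unadjusted p under 0.05, 1 of the 9 passed, *Stx3*, against 17.3% of all genes. The members had 5 positive and 4 negative differences and a median log2 fold change of 0.07. Over all genes the median was -0.01. For the 8 members other than *Stx3* the differences ran from -0.10 to 0.15, and all 8 of their 95% intervals held 0 and lay between -0.33 and 0.34. As ratios of knockout to control, these intervals reached from 0.796 (*Vamp7*) to 1.27 (*Stx7*). In all 9 genes, values of the 2 groups overlapped. Over all genes every knockout mouse lay above every control in 3.39% and below every control in 1.93%. Compared within each sex, the shares were 5.2% and 3.72%.

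**Figure D1:**
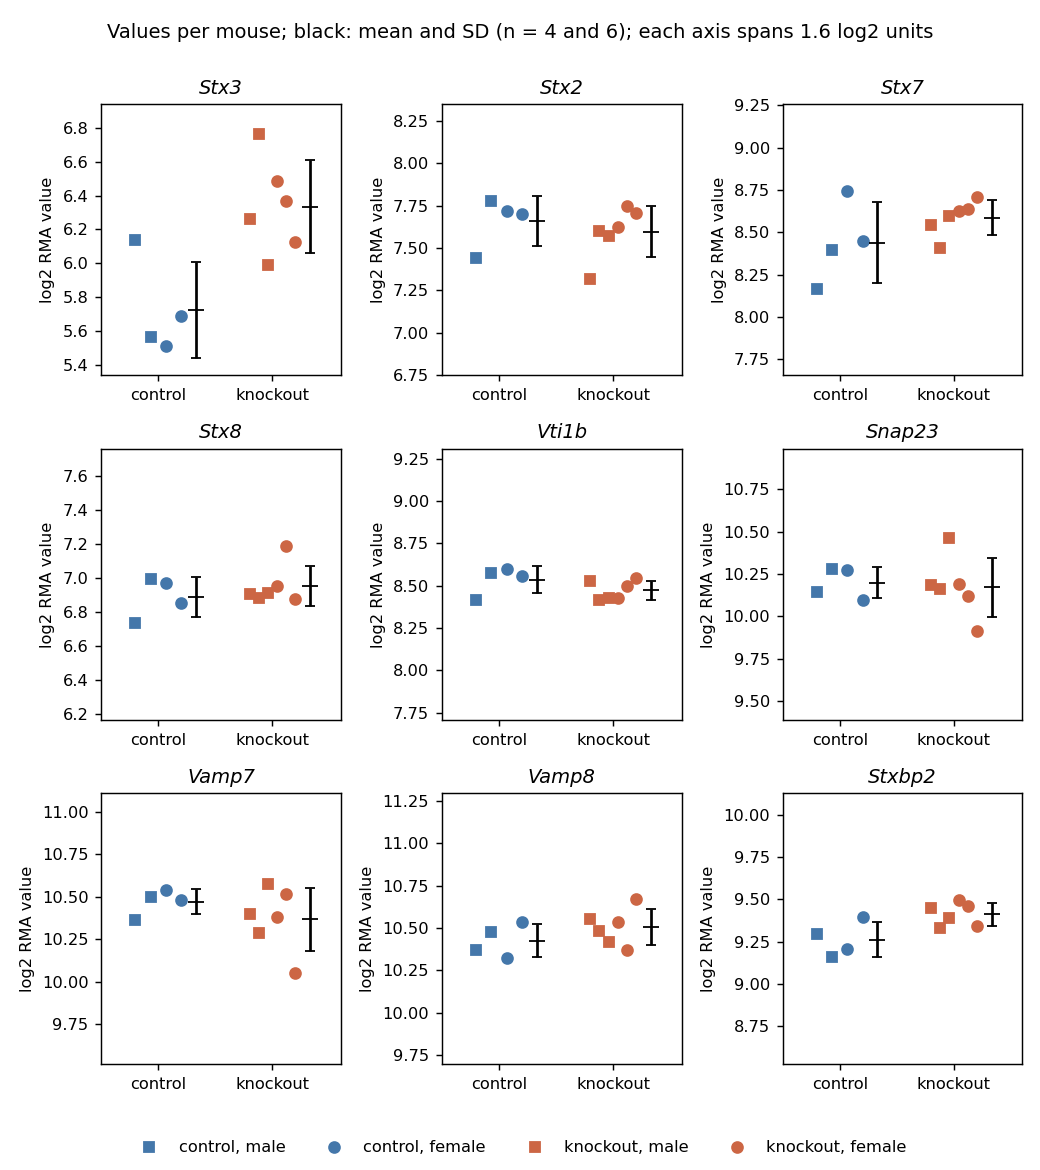
Log2 expression of the 9 genes in each mouse, with control mice in blue, knockout mice in orange, males as squares and females as circles. Black marks are the mean and SD (n = 4 and 6), and every vertical axis spans the same distance. *Stx3* is the gene with the widest spread (1.25), and *Vti1b* the one with the narrowest (0.18).

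*Stx3* encodes the Qa-SNARE of the apical plasma membrane in epithelial cells (probe set 17363025). Its log2 value was 6.14, 5.57, 5.51 and 5.69 in control mice 1 to 4. In knockout mice 1 to 6 it was 6.26, 6.76, 5.99, 6.49, 6.37 and 6.13. Male control 1 stood apart from the other controls and overlapped with the knockout mice, of which 4 of 6 lay above it. The other 3 controls lay below every knockout mouse, with a gap of 0.30 between the groups. The mean of the controls was 5.73 ± 0.28 (SD, n = 4) and that of the knockout mice 6.33 ± 0.27 (SD, n = 6). Their difference of 0.61 (standard error 0.16, 95% interval 0.26 to 0.95) is a ratio of 1.52 (1.20 to 1.94). It had an adjusted p of 0.0546 in limma and did not pass. In whole liver, a change in the number of cells of a type and a change in the RNA of each cell cannot be told apart, and the markers of other liver cells are given further on.

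*Stx3* stayed near the threshold under other settings. Over 20 alternatives its log2 fold change ran from 0.52 to 0.75, positive in each, and it passed in 5 of them. Leaving out control 1 gave 0.75 (adjusted p = 0.0196), and leaving out knockout 3 gave 0.70 (adjusted p = 0.0232). Array weights (adjusted p = 0.0173), a test limited to genes above the median level (0.0375) and robust moderation with a trend (0.0454) also took it past the threshold. Without control 2 the adjusted p was 0.190, the largest of the 20.

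**Figure D2:**
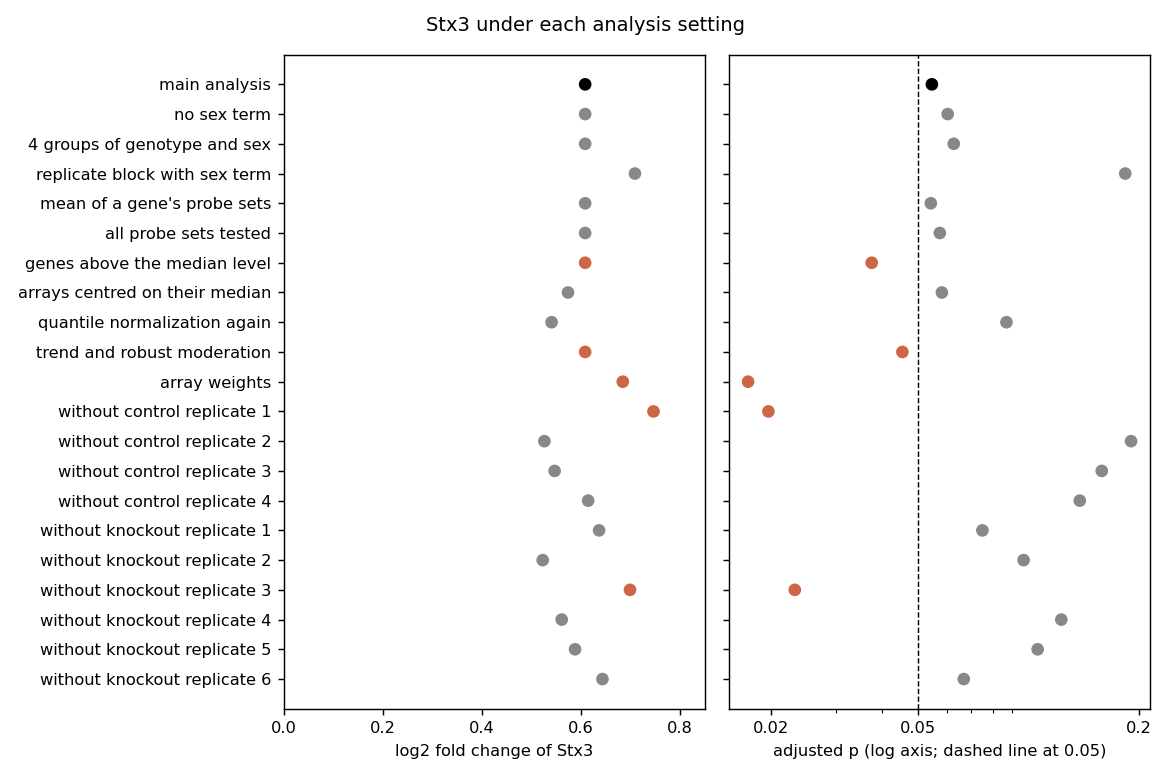
Log2 fold change of *Stx3* (left, linear axis) and its adjusted p (right, log axis, dashed line at the threshold) in the main analysis (black) and in 20 alternatives. Orange points passed and grey points did not. The fold change stays between 0.52 and 0.75, while the adjusted p runs from 0.0173 to 0.190.

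*Stxbp2* encodes the SM protein that binds syntaxin 3 and syntaxin 11 (probe set 17498699). It read 9.29, 9.16, 9.21 and 9.39 in control mice 1 to 4. In knockout mice it ran from 9.33 to 9.49 with a median of 9.42. Female control 4 reached into the knockout range, and the other 3 controls lay below it. The log2 fold change was 0.15 (standard error 0.07, 95% interval -0.01 to 0.31, adjusted p = 0.345), which did not pass. The upper end of this interval is a ratio of 1.24.

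The 250 bases before the annotated starts of *Stx3* and *Stxbp2* are shown because these are the member with the largest difference and its SM partner. They come from the RefSeq annotation of GRCm38.p6, which holds promoters for 8 of the 9 members. *Stx3* lies on the minus strand at chr19:11819404-11819653 and *Stxbp2* on the plus strand at chr8:3630859-3631108. The build of the array's own annotation is not given in the sources used here. Capitals mark matches on either strand to CACGTG, the E-box core that is part of the sites of the MiT/TFE factors of lysosomal genes. A match to the core alone does not show which factor reads it.
Stx3: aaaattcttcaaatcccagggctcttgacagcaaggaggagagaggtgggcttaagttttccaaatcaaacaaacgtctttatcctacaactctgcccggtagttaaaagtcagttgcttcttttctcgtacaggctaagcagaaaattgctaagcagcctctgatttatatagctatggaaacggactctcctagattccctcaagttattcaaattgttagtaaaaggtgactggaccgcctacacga
Stxbp2: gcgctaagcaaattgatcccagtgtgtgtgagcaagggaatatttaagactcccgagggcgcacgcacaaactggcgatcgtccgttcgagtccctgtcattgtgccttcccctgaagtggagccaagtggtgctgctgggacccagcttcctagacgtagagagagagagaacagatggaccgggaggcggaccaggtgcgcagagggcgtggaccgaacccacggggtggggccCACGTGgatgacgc
*Stxbp2* holds 1 match, which begins 14 bases before the start, and *Stx3* holds none in this window. Of the 8 members with a promoter, 1 holds CACGTG in these 250 bases, against 6.86% of the genes in the table. None of the 8 holds TGACTCA, the AP-1 motif, on either strand, against 5.16% of genes. The G and C content of these windows ran from 42.0% in *Stx3* to 71.6% in *Vti1b*, where the median of all promoters was 52.4%.

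*Stx2*, the plasma membrane relative of *Stx3* (probe set 17453087), read 7.44, 7.78, 7.72 and 7.70 in control mice 1 to 4. In knockout mice it ran from 7.32 to 7.75 with a median of 7.61. The lowest value in each group belonged to a male, control 1 and knockout 1, and the groups covered much the same range. Its log2 fold change was -0.06 (95% interval -0.26 to 0.13, adjusted p = 0.803). *Snap23* encodes the widespread Qbc-SNARE of the plasma membrane (probe set 17375083). It read 10.14, 10.28, 10.27 and 10.10 in the controls and from 9.92 to 10.46 in knockout mice, with a median of 10.17. Knockout 3 and knockout 6 lay above and below all controls. Its log2 fold change was -0.03 (95% interval -0.23 to 0.18, adjusted p = 0.934), the smallest in size of the 9.

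Syntaxin 7, syntaxin 8, VTI1B and an R-SNARE, VAMP7 or VAMP8, form the fusion bundles of late endosomes. *Stx7*, the Qa member (probe set 17232202), read 8.17, 8.40, 8.75 and 8.45 in control mice 1 to 4. In knockout mice it ran from 8.41 to 8.71 with a median of 8.61. Control 1 was the lowest and female control 3 the highest of all 10 mice, so the whole knockout range fell inside that of the controls. The log2 fold change was 0.15 (95% interval -0.05 to 0.34, adjusted p = 0.446). *Stx8*, the Qc member (probe set 17251282), read 6.73, 6.99, 6.97 and 6.85 in the controls. In knockout mice it ran from 6.88 to 7.19 with a median of 6.91. Knockout 5 alone exceeded the controls, and the log2 fold change was 0.07 (95% interval -0.12 to 0.25, adjusted p = 0.775). *Vti1b*, the Qb member (probe set 17282148), read 8.42, 8.57, 8.60 and 8.56 in the controls and from 8.42 to 8.54 in knockout mice, with a median of 8.46. It held the narrowest range of the 9 genes, and the controls other than control 1 lay just above all knockout mice. Its log2 fold change was -0.06 (95% interval -0.21 to 0.09, adjusted p = 0.730).

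*Vamp7* encodes an R-SNARE with a longin domain that serves late endosomes and, in dog kidney cells, apical delivery with syntaxin 3 (probe set 17546234). It read 10.37, 10.50, 10.54 and 10.48 in control mice 1 to 4. In knockout mice it ran from 10.05 to 10.57 with a median of 10.39. Knockout 6 was the lowest mouse in *Vamp7*, as it was in *Snap23*. The log2 fold change of *Vamp7* was -0.10 (95% interval -0.33 to 0.12, adjusted p = 0.683). *Vamp8* encodes the R-SNARE of late endosomes and of regulated secretion (probe set 17467747). It read 10.37, 10.48, 10.32 and 10.53 in the controls and from 10.37 to 10.67 in knockout mice, with a median of 10.51. Knockout 6 had the highest value, and the others fell largely within the control range. Its log2 fold change was 0.08 (95% interval -0.10 to 0.26, adjusted p = 0.700).

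The knockout effect was also taken within each sex. For *Stx3* it was 0.49 in males (95% interval -0.02 to 0.99, adjusted p = 0.464) and 0.73 in females (95% interval 0.23 to 1.23, adjusted p = 0.165), neither of which passed. The male effect rested on few mice, being 0.77 without control 1, 0.20 without control 2 and 0.27 without knockout 2, while the female effect ran from 0.64 to 0.83 without single mice. No member passed in males, where 0.347% of all genes did, or in females, where 0.906% did. In females all knockout mice lay above both controls, whereas in males control 1 lay above knockout 3. The difference between the sexes, females minus males, was 0.24 for *Stx3* (95% interval -0.47 to 0.95, adjusted p = 0.944). Across the 9 genes this difference ran from -0.18 to 0.24 and none passed in limma, with 0 at an unadjusted p under 0.05. Over all genes 0.00451% passed, and 6.14% did at an unadjusted p under 0.05. With 2 to 3 mice in each cell the intervals of this difference reached from -0.64 to 0.51 for the members other than *Stx3*. In control mice, *Stx7* was 0.32 higher in females (95% interval 0.01 to 0.62, adjusted p = 0.439), the 1 of 9 genes at an unadjusted p under 0.05, against 10.9% of all genes. It did not pass after adjustment, as 0.176% of all genes did.

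**Figure D3:**
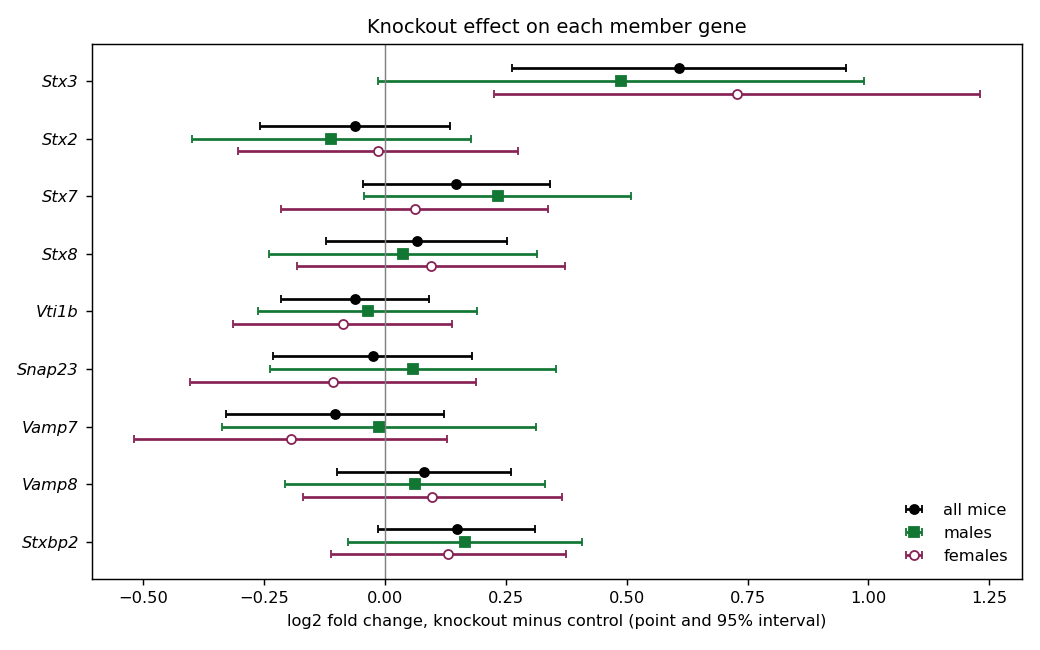
Log2 fold change, knockout minus control, of each member with its 95% interval in all mice (black circles), in males (green squares) and in females (open circles). In all mice the interval of *Stx3* (0.26 to 0.95) is the 1 of 9 that leaves out 0.

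The profile of *Stx3* over the 10 mice was compared with those of the 3502 genes whose SD was at least that of *Stx3* divided by 1.5. The measure was the mean absolute difference of the gene-centred log2 values, which has no test. Nearest was *Rbpms*, an RNA-binding protein (0.10), followed by *Ifngr1*, a chain of the interferon gamma receptor (0.10), and *Gars*, the glycyl-tRNA synthetase (0.11). All 3 were picked for nearness to *Stx3* over these same mice, so a like pattern and direction follow largely from the choice. In all 3, as in *Stx3*, control 1 stood above the other controls and knockout 3 was the lowest knockout mouse. Their log2 fold changes were 0.46 for *Rbpms* (adjusted p = 0.0898), 0.62 for *Ifngr1* (adjusted p = 0.0240) and 0.41 for *Gars* (adjusted p = 0.100). *Ifngr1* passed the test, and *Rbpms* and *Gars* did not.

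**Figure D4:**
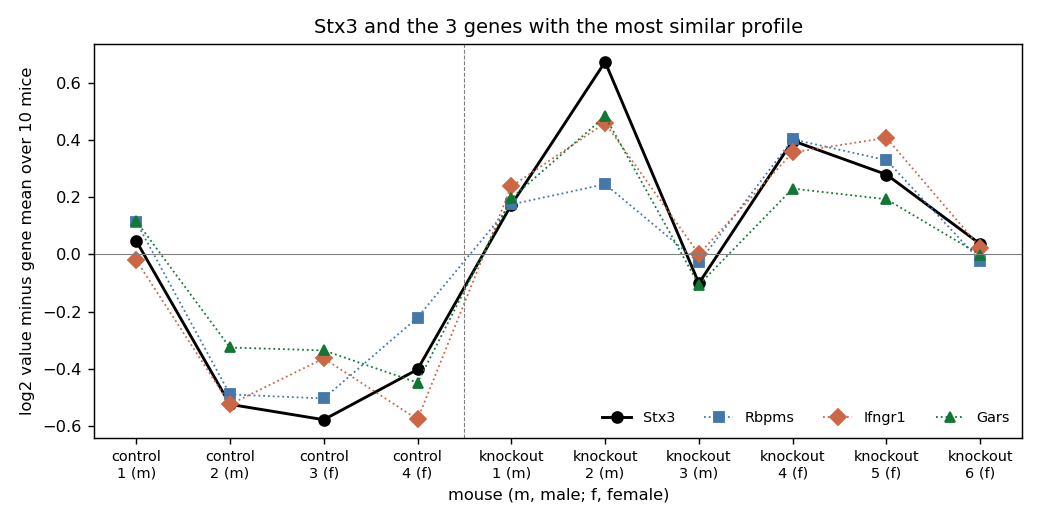
Gene-centred log2 values of *Stx3* (black) and of the 3 genes nearest to it in each of the 10 mice, with controls left of the dashed line. In all 4 genes control 1 lies above the other controls, and knockout 3 is the lowest of the knockout mice. This likeness follows largely from choosing the 3 genes by nearness to *Stx3*.

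Among the other genes of SNARE fusion, 5 of 55 passed, 3 as higher and 2 as lower in knockout liver (9.09%, where 4.25% of all genes passed). Tested alone, genes above the median level gave 807 higher and 409 lower, against 690 and 252 in the main analysis. More genes thus passed out of fewer tested, so the share among these brighter genes was above 4.25%. The filter also changes the adjustment. The 9.09% is therefore not shown to exceed the share among genes of like level. The lists were chosen with earlier results of these data known, and the shares were not compared by a test. Of 11 other plasma membrane SNAREs, 2 were higher, 0 lower and 9 did not pass, with a median log2 fold change of 0.05. *Stx11*, the syntaxin of cytotoxic granules and platelets, which STXBP2 also binds, read 5.18, 5.68, 5.69 and 5.62 in the controls and from 5.73 to 6.50 in knockout mice, with a median of 6.21. *Vamp5*, an R-SNARE of muscle and plasma membrane, read 8.21, 8.68, 8.94 and 8.48 in the controls and from 8.96 to 9.35 in knockout mice, with a median of 9.13. In both genes every knockout mouse lay above every control, by a narrow margin. *Stx11* rose by 0.63 (standard error 0.14, adjusted p = 0.0262) and *Vamp5* by 0.58 (standard error 0.13, adjusted p = 0.0313).

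Of 12 genes listed as SNAREs, or relatives of SNAREs, of the endoplasmic reticulum (ER) and Golgi, 2 were lower, 0 higher and 10 did not pass. Their median log2 fold change was -0.12. *Bet1*, a Qc-SNARE of transport from ER to Golgi, read 8.81, 8.94, 8.53 and 8.67 in the controls and from 8.16 to 8.44 in knockout mice, with a median of 8.37. Every knockout mouse lay below every control, and *Bet1* fell by 0.40 on the log2 scale (standard error 0.08, adjusted p = 0.0238). *Sec22c*, an ER relative of the R-SNARE *Sec22b*, read 7.00, 6.91, 6.61 and 6.64 in the controls and from 6.39 to 6.71 in knockout mice, with a median of 6.46. Male knockout 2 lay above both female controls, and *Sec22c* fell by 0.29 on the log2 scale (standard error 0.07, adjusted p = 0.0471). Among 16 regulators of SNAREs, 1 was higher and 15 did not pass. It was *Rab27b*, a GTPase of secretory granules, which read 5.26, 5.15, 5.32 and 5.25 in the controls and from 5.60 to 5.99 in knockout mice, with a median of 5.68. Every knockout mouse lay above every control, and *Rab27b* rose by 0.50 (standard error 0.09, adjusted p = 0.0115). None of 6 other endosome and trans-Golgi SNAREs, 6 other SM genes (*Vps33b* and *Vps33a* included) or 4 disassembly genes passed in limma, with 1, 1 and 0 at an unadjusted p under 0.05.

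Each of these 5 calls was lost on leaving out some single mice, here with the adjusted p. *Sec22c* did not pass without any 1 of the 10 mice (adjusted p = 0.0604 to 0.133). *Vamp5* passed without control 3 (0.0146) or knockout 5 (0.0403) and was lost without any 1 of the other 8 (0.0506 to 0.113). *Stx11* was lost without control 1 (0.0537), control 3 (0.0660), control 4 (0.0912), knockout 4 (0.0640) or knockout 5 (0.0533). *Bet1* was lost without control 2 (0.0967), control 4 (0.0841) or knockout 2 (0.0520), and *Rab27b* without control 2 (0.0543).

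**Figure D5:**
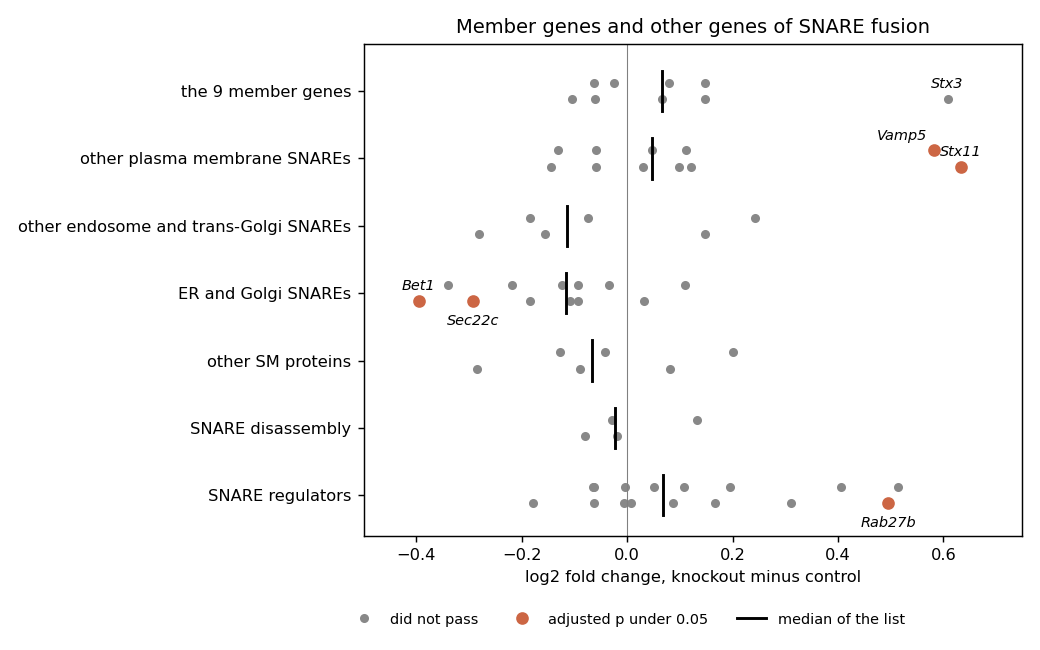
Log2 fold change, knockout minus control, of the 9 members and of 55 other genes of SNARE fusion in 6 lists. Orange points passed at an adjusted p under 0.05, grey points did not, and the black bars are list medians. *Stx3* lies beside *Vamp5* and *Stx11* at the upper end, and the other members lie between -0.10 and 0.15.

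Markers of other liver cells differed between the groups as well. Of 7 bile duct markers 5 passed as higher and 0 as lower, with 6 higher at an unadjusted p under 0.05. Their mean log2 value per mouse was 5.79 to 6.03 in control and 6.54 to 7.18 in knockout mice. A marker is called at or under the background here where the means of both groups were no higher than 4.51. Among the bile duct markers this held for *Cftr*, though a knockout mouse reached 4.90. Of 14 macrophage markers 6 were higher and 0 lower (7.98 to 8.58 against 8.75 to 9.32), with none at background. At an unadjusted p under 0.05, 13 of the 14 were higher. Of 10 stellate and fibroblast markers 4 were higher and 0 lower (7.27 to 7.71 against 7.69 to 8.30). Of 10 endothelial markers 1 was higher and 0 lower (8.11 to 8.61 against 8.40 to 8.64). At an unadjusted p under 0.05, 6 and 3 of these lists were higher. Of 10 neutrophil markers 1 passed as higher (4.20 to 4.47 against 4.43 to 4.82), and 3 were higher at an unadjusted p under 0.05. By their group means 6 of the 10, among them *S100a8*, *S100a9* and *Ly6g*, were at or under the background. A knockout mouse still reached 5.02 in *S100a8*. None of 9 lymphocyte markers passed in limma (5.04 to 5.41 against 5.19 to 5.48), with 0 at an unadjusted p under 0.05 and *Ms4a1* and *Klrb1c* at background. None of 9 mast cell and platelet markers passed (4.96 to 5.10 against 5.05 to 5.34), with *Cpa3*, *Mcpt4*, *Tpsb2* and *Ms4a2* at background. At an unadjusted p under 0.05, 3 were higher, all of them platelet genes. Their log2 fold changes were 0.63 for *Ppbp*, 0.46 for *Pf4* and 0.44 for *Gp9*, while that of the platelet gene *Itga2b* was -0.08. None of 11 hepatocyte markers passed, 2 of them being lower at an unadjusted p under 0.05, and their mean was 12.35 to 12.38 in control and 12.23 to 12.33 in knockout mice. The part of these cells in the values of *Stx3*, *Stx11*, *Vamp5*, *Rab27b*, *Bet1* and *Sec22c* was not tested.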

How the data were processed

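Liver RNA of 10 mice was measured on Affymetrix Mouse Gene 2.0 arrays, 1 per mouse. The deposited values are log2 expression per probe set, which the authors made with RMA in the oligo package (background correction, quantile normalisation over arrays and summary of probes, whose versions the sources used here do not give). That they are on the log2 scale follows from their range. Of 41345 probe sets, the 23521 with 1 gene symbol in the platform annotation were kept, and for genes with several the one with the highest mean, which left 22180 genes. Genotype and sex were the terms of a linear model in limma 3.58.1 under R 4.3.3, with Benjamini-Hochberg adjustment over all genes. Effects within sexes came from 1 fit with 4 groups. The paper's main text names no test per gene. Levels were not compared between genes. The number of arrays limits the precision, and no scan or slide batch was given. The fit was tested on simulated data.

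The members and lists were chosen with earlier results of these data known. The text names the members, *Vps33b*, *Vps33a* and genes of the SNARE lists past the threshold (at most 6 per list). It also names the 3 profiles nearest to *Stx3* and up to 3 markers per list. *Itga2b* and the markers named for a low level were chosen after their values were seen. Replicate numbers were not used to pair the mice in the main analysis. Alternatives were other model terms, probe set choices, a filter on dim genes, scalings, moderation, weights per array and the loss of each mouse in turn.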

Additional observations from a re-analysis of the deposited data

Results flagged for a closer look

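*Stx8* in knockout 5 read 7.19 on the log2 scale and stood apart from the other 5 knockout mice. Its gap to the nearest of them was 0.751 of the range of the 6 mice, above Dixon's critical value for 6 samples at the 95% level. It was the 1 of 18 groups of mice and members so marked, where chance marks about 1 in 20. Without knockout 5 the log2 fold change of *Stx8* was 0.02 (adjusted p = 0.935 in limma).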

How the results depend on the processing

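In 20 alternatives per gene, 8 of the 9 members never passed and *Stx3* passed in 5. The number of members higher in knockout liver was 1 with genes above the median level (log2 fold change of *Stx3* 0.61), with trend and robust moderation (0.61) and with array weights (0.68), and 0 to 1 without single mice (*Stx3* 0.52 to 0.75). *Snap23* turned positive after a further quantile normalisation (0.0012) and with a replicate block (0.0059), and ran from -0.077 to 0.027 without single mice. *Stx2* ran from -0.12 to 0.013. With arrays centred on their median, the effect in females on *Stx7* became -0.0016 and the sex difference of *Vamp8* -0.021. Without single mice, the effect in males ran from -0.28 to 0.057 for *Stx2*, -0.093 to 0.17 for *Stx8*, -0.089 to 0.055 for *Vamp7*, -0.039 to 0.13 for *Snap23* and -0.11 to 0.042 for *Vti1b*. In females it ran from -0.042 to 0.020 for *Stx2*, -0.086 to 0.21 for *Stx7* and -0.0084 to 0.20 for *Vamp8*. The sex difference ran from -0.072 to 0.27 for *Stx2*, -0.045 to 0.53 for *Stx3*, -0.071 to 0.19 for *Stx8*, -0.070 to 0.14 for *Vamp8*, -0.13 to 0.026 for *Vti1b* and -0.13 to 0.060 for *Stxbp2*. None of these passed.

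Over all genes, 252 were lower in the main analysis, 165 with no sex term, 409 among genes above the median level, 499 with array weights and 47 to 449 without single mice (233 to 825 higher, against 690). Of the genes in the ER and Golgi list, 2 were lower, against 1 with no sex term, with 4 groups, with all probe sets and with trend and robust moderation, and 0 to 1 without single mice. Of the plasma membrane SNAREs, 0 to 1 were higher without single mice, against 2. Of the regulators, 2 were higher with 4 groups and with array weights and 0 to 2 without single mice, against 1. Of the other SM genes, 1 was lower among genes above the median level. With the replicate number as a block (replicate block), 208 genes were higher and 49 lower. In this fit 0 members, 0 plasma membrane SNAREs, 0 ER and Golgi SNAREs and 0 regulators passed. Knockout 5 and 6 have no partner in it, and number 3 joins a female control to a male knockout. Residuals of mice with the same number correlated at -0.24 to 0.12, and 0 of 4 controls matched best with their own number. These values show no pairing by number, but so few correlations cannot exclude it. The cause of these shifts was not tested. The number of arrays, 4 and 6, limits the precision.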

Other observations

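Control 1, a male, was the lowest of the 10 mice in 3 of the 9 members and the highest in 0. In 1 of the 3, *Vti1b*, it shared the lowest value with knockout 2 (8.42 in both). Knockout 6, a female, was the lowest in 2 and the highest in 1.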
